A study of Homo sapiens with 5 samples.

Results

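AP-1 is a dimeric transcription factor built from FOS and JUN proteins. The genes described here are its FOS members (FOS, FOSB, FOSL1 and FOSL2) and its JUN members (JUN, JUNB and JUND), together with ATF3, EGR1 and MAFF, which encode other transcription factors of the early response to growth factors and stress. They were chosen by name, and all 10 were found among the 31029 genes listed in every one of the 5 libraries analysed. The libraries are total RNA-seq of human cells infected with lentivirus expressing a short hairpin RNA against BPTF (shBPTF), the largest subunit of the chromatin remodelling complex NURF, and then selected with puromycin. The cells were 501Mel, a melanoma cell line (2 libraries), and Hermes 3A, a line of untransformed human melanocytes (3 libraries). All groups carry the BPTF hairpin, control-hairpin cells were not analysed here, and the comparison is therefore between lines in the silenced state and says nothing of the effect of silencing.

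Both lines were grown in RPMI medium with foetal calf serum, and the Hermes 3A medium also held the phorbol ester TPA, cholera toxin, stem cell factor and endothelin-1. Cell line and medium cannot be told apart, and which of the study's BPTF hairpins a library holds is not stated. The gene lists deposited for the lines also differ, with 6230 genes listed for 501Mel cells only and 3004 for Hermes 3A cells only. Those genes were left out, and they took 0.468% of the counts in 501Mel replicate 1 and 0.0938% in Hermes 3A replicate 1. The genes kept held 99.3% of the counts in 501Mel replicate 2 and 99.9% in each of Hermes 3A replicates 2 and 3.

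Immediate early genes are switched on within minutes of a stimulus, without new protein synthesis, when MAP kinases activate factors such as SRF with its ELK partners and CREB that already sit at their promoters. FOS and JUN proteins pair through leucine zippers and bind the TRE, a sequence first defined by its response to TPA. FOS proteins need a JUN partner to bind, whereas JUN proteins can also pair with each other. In the melanocytic lineage AP-1 genes respond to the same MAP kinase route that growth factors and, in many melanomas, mutated signalling proteins use.

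The proximal promoters are shown first because they can carry sites through which such signals act. They were read from RefSeq on GRCh38.p14 as windows from 250 bases before to 50 after the gene start, 11 windows for the 10 genes since MAFF has 2 starts. Motifs were searched on both strands: the CRE core TGACGT, which is contained in the full CRE TGACGTCA bound by CREB and ATF proteins, the CArG box bound by SRF, TATAAA, the TRE TGACTCA, the EGR site GCGGGGGCG and the E-box CACGTG. FOS and EGR1 are given over the 150 bases before their start, and the other stretches are cut to the match. Capitals mark the CRE core or CRE, TATAAA and, in EGR1, the CArG boxes.
FOS (chr14:75278678-75278827, plus strand): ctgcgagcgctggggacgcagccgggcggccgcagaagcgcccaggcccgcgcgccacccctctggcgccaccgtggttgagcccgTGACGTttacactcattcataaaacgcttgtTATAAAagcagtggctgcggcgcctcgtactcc
EGR1 (chr5:138465329-138465478, plus strand): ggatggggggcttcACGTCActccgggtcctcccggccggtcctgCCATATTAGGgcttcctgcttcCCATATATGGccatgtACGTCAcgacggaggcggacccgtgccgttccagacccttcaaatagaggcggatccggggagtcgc
FOSB (chr19:45467921-45467980, plus strand): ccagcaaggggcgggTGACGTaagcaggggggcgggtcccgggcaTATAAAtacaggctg
FOSL2 (chr2:28392778-28392807, plus strand): gtggagtctggggtTGACGTgagtgaatcc
JUNB (chr19:12791441-12791470, plus strand): gctgactagcgcggTATAAAggcgtgtggc
JUND (chr19:18281808-18281837, minus strand): gcgcggccgcccccaTGACGTCAacccaca
MAFF (chr22:38201924-38201953, plus strand): agggcggccgggtcggTGACGTCAccgcat

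The CRE core was present in 6 of the 11 windows, those of EGR1, FOS, FOSB, FOSL2 and JUND and 1 of the MAFF windows, and in 7.98% of all 35116 windows. The full CRE was present in the JUND window and in 1 MAFF window, against 1.85% of all windows. Within these windows EGR1 alone held a CArG box, 2 of them, where 1.29% of all windows hold any. TATAAA was present in the windows of FOS, FOSB, JUNB and ATF3, against 11.5%. The TRE was found in 1 window, FOSL2, against 4.95%, the E-box in both MAFF windows, against 7.26%, and the EGR site in 0 of 11, against 5.07%. The FOSL1 and JUN windows held none of these motifs. A match is a description of the letters in the window and not evidence of binding. Sites outside the windows, and sites that differ from the searched letters, were not looked for. A window without a match therefore does not show that the gene lacks such a site.

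Total counts per library ran from 30073071 to 43032311, so that 3 counts correspond to between 0.0697 and 0.0998 CPM (counts scaled to a library total of 1000000), which covers counting error only. BPTF itself was at 65.8 and 57.8 CPM in the 501Mel libraries and at 45.8, 51.6 and 54.1 CPM in Hermes 3A cells, values that cannot be set against a control here. Of 8 melanocytic markers all 8 were detected, summing to 12784 and 19763 CPM in the 501Mel libraries and to between 32338 and 33380 CPM in Hermes 3A cells. Of 4 keratinocyte markers only KRT10 was listed in every library. Of 4 leukocyte and endothelial markers only CDH5 and PTPRC were listed in every library, and they summed to at most 0.264 CPM. Of 5 fibroblast markers all 5 were listed in every library, and they summed to between 4.23 and 17.7 CPM in the 501Mel libraries and to between 78.3 and 190 CPM in Hermes 3A cells, where COL1A2 made up most of the sum. The other 4 fibroblast markers, COL1A1, DCN, LUM and PDGFRA, had higher means in 501Mel cells, of at most 5.33 CPM. Hermes 3A replicate 1 stood apart from the other replicates of its line, with a chi-square per gene of 88.4 and 89.8 against them where they gave 19.7 against each other. The 2 501Mel libraries gave 69.5 against each other, and which of them stood apart cannot be told. Results that rest on Hermes 3A replicate 1 are given with and without it. The study's methods say that experiments were repeated, but the labels do not say whether these replicates were separate infections or cultures, so that p-values measure the spread between these libraries, which may be technical. In these bulk samples fewer cells expressing a gene and less RNA per cell cannot be told apart.

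The AP-1 genes were, for the most part, lower in 501Mel than in Hermes 3A cells. With edgeR's quasi-likelihood test and Benjamini-Hochberg adjustment over 17975 genes, 5 of the 10 genes were called (adjusted p under 0.05 with at least a 2-fold difference), and all 5 were lower in 501Mel cells. They were FOSL1, FOSL2 and all 3 JUN genes. Across all genes 34.3% were called, 17.1% as lower and 17.2% as higher in 501Mel cells. The median log2 difference (501Mel minus Hermes 3A) was -1.15 over the 10 genes and 0.02 over all genes tested. In 7 of the 10 genes both 501Mel libraries lay below all 3 Hermes 3A libraries, a pattern seen in 31.9% of all genes, and the lines overlapped for FOSB, EGR1 and MAFF. For 0 of the 10 did both 501Mel libraries lie above all Hermes 3A libraries, against 37.9% of all genes. Without Hermes 3A replicate 1 this held for 1 of the 10, MAFF, against 41.1%. Without Hermes 3A replicate 1, 6 genes were called, all lower in 501Mel cells, with ATF3 added, against 36.5% of all genes. Without Hermes 3A replicate 2 the count was 8, with FOS, EGR1 and ATF3 added, where 5484 of all genes were called against 6157 with all libraries. Leaving out 501Mel replicate 2 keeps a single library of that line. The log2 differences of FOSL2 (-0.94) and JUNB (-0.80) then fell under 2-fold, and those of FOSL1, JUN and JUND did not.

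**Figure D1:**
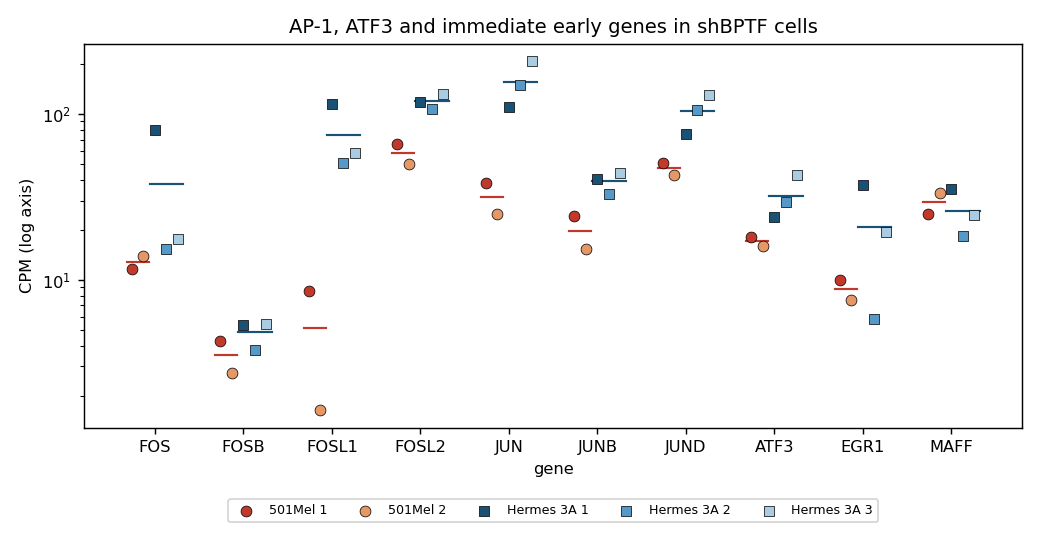
Level of each of the 10 genes in CPM on a log axis, with 1 point per library for the 2 501Mel shBPTF and 3 Hermes 3A shBPTF libraries and a line at the mean of each cell line. FOSL1 and JUN show the widest gap between the lines, and for FOS a single Hermes 3A library, at 80.4 CPM, lies away from the other two.

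Among the FOS genes, FOSL1 differed most. FOSL1 (ENSG00000175592, on GRCh38 chr11:65892049-65900573, minus strand) encodes FRA1, a FOS protein without the strong activation domain of FOS that accumulates when ERK signalling persists. It was at 8.60 and 1.64 CPM in 501Mel cells (370 and 62 reads) and at 115, 50.5 and 58.4 CPM in Hermes 3A cells. Every Hermes 3A library was above both 501Mel libraries, although the 501Mel libraries themselves differed 5.25-fold. The level was 15.4-fold higher in Hermes 3A cells (log2 difference -3.95 ± 0.75 SE, edgeR adjusted p = 0.00465). The log2 difference was -5.57 without 501Mel replicate 1, -3.23 without 501Mel replicate 2 and -3.47 without Hermes 3A replicate 1, and the gene was called each time.

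FOSL2 (ENSG00000075426, chr2:28392448-28417312, plus strand) encodes FRA2, the other FOS-related antigen. Its TRE lies just after the RefSeq start used for the promoter window. It was at 66.2 and 50.1 CPM in the 501Mel libraries and at 117, 107 and 132 CPM in Hermes 3A cells. The groups did not overlap, and among the FOS genes it had the smallest spread between Hermes 3A replicates. It was 2.14-fold higher in Hermes 3A cells (log2 difference -1.10 ± 0.18 SE, edgeR adjusted p = 0.00253). The difference fell under 2-fold, at -0.94 on the log2 scale, without 501Mel replicate 2.

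FOS itself (ENSG00000170345, chr14:75278774-75282230, plus strand), the founding immediate early gene, was at 11.6 and 13.9 CPM in the 501Mel libraries and at 80.4, 15.3 and 17.7 CPM in Hermes 3A cells. Hermes 3A replicate 1, with 3348 FOS reads, was 4.88-fold above the mean of the other 2 replicates, which lay close to the 501Mel libraries. The log2 difference between lines was -1.67 ± 0.75 SE and did not pass the test (edgeR adjusted p = 0.106). Without that library it was -0.42 (edgeR adjusted p = 0.148), and without Hermes 3A replicate 2 it was -2.11 and passed (edgeR adjusted p = 0.0401). The size of the FOS difference thus rested on 1 library.

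FOSB (ENSG00000125740, chr19:45467995-45475179, plus strand), whose promoter stretch has the same order of CRE core and TATAAA as that of FOS, was the least abundant FOS gene. It was at 4.25 and 2.75 CPM in the 501Mel libraries and at 5.31, 3.77 and 5.39 CPM in Hermes 3A cells. The lines overlapped, and the difference of -0.53 ± 0.36 SE on the log2 scale did not pass the test (edgeR adjusted p = 0.264).

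All 3 JUN genes were lower in 501Mel cells. JUN (ENSG00000177606, chr1:58780788-58784327, minus strand), whose protein is the main partner of FOS and is activated by the JNK kinases, was at 38.2 and 24.9 CPM in the 501Mel libraries and at 110, 149 and 207 CPM in Hermes 3A cells. The lowest Hermes 3A library was well above the highest 501Mel library. JUN was 5.13-fold higher in Hermes 3A cells (log2 difference -2.36 ± 0.30 SE, edgeR adjusted p = 0.000966), and it was called under every alternative tried.

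JUND (ENSG00000130522, chr19:18279760-18281622, minus strand) encodes a JUN protein that is present in most resting cells and is not a typical immediate early gene. Its values were 50.8 and 43.0 CPM in the 501Mel libraries and 75.1, 106 and 131 CPM in Hermes 3A cells. The groups did not overlap. The level was 2.30-fold higher in Hermes 3A cells (log2 difference -1.20 ± 0.23 SE, edgeR adjusted p = 0.00465).

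JUNB (ENSG00000171223, chr19:12791496-12793315, plus strand), often an antagonist of JUN in proliferation, was at 24.1 and 15.3 CPM in the 501Mel libraries and at 40.6, 32.8 and 44.0 CPM in Hermes 3A cells. It was 2.09-fold higher in Hermes 3A cells (log2 difference -1.06 ± 0.25 SE, edgeR adjusted p = 0.0114). JUNB sat close to the threshold, with a log2 difference of -0.80 and an edgeR adjusted p of 0.0572 without 501Mel replicate 2. HOOK2 lies on the opposite strand and shares 259 exon bases with JUNB, and the sources used here do not state whether reads were counted by strand.

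None of the 3 genes outside the FOS and JUN families was called. ATF3 (ENSG00000162772, chr1:212565334-212620777, plus strand), a stress-induced factor that pairs with JUN proteins, was at 18.1 and 16.0 CPM in the 501Mel libraries and at 23.9, 29.5 and 42.9 CPM in Hermes 3A cells. The groups did not overlap, and the log2 difference of -0.97 ± 0.26 SE passed on its p (edgeR adjusted p = 0.0190) but lay just under 2-fold. With the p alone as the criterion, 6 of the 10 genes passed, all lower in 501Mel cells, against 48.2% of all genes in either direction. Without Hermes 3A replicate 1 the ATF3 difference was -1.14 (edgeR adjusted p = 0.00841) and was called, and without Hermes 3A replicate 2 it was -1.10 and also called (edgeR adjusted p = 0.0280). It did not pass on its p without 501Mel replicate 1 (edgeR adjusted p = 0.0650) or without 501Mel replicate 2 (edgeR adjusted p = 0.0876).

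EGR1 (ENSG00000120738, chr5:138465490-138469315, plus strand), a zinc finger factor of the SRF-driven early response, was at 10.0 and 7.58 CPM in the 501Mel libraries and at 37.3, 5.82 and 19.3 CPM in Hermes 3A cells. Hermes 3A replicate 2 lay below both 501Mel libraries and replicate 1 above all others. The difference of -1.34 ± 0.69 SE on the log2 scale did not pass the test (edgeR adjusted p = 0.150). It was -0.58 without Hermes 3A replicate 1 (edgeR adjusted p = 0.413) and passed, at -1.84, without replicate 2 (edgeR adjusted p = 0.0112).

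MAFF (ENSG00000185022, chr22:38200767-38216511, plus strand), a small MAF protein without an activation domain of its own, gave no detectable difference between the lines. It was at 24.9 and 33.5 CPM in the 501Mel libraries and at 35.3, 18.3 and 24.7 CPM in Hermes 3A cells. The log2 difference was 0.09 ± 0.32 SE (edgeR adjusted p = 0.835), and its sign turned when 501Mel replicate 2 (-0.17) or Hermes 3A replicate 2 (-0.18) or 3 (-0.01) was left out.

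**Figure D2:**
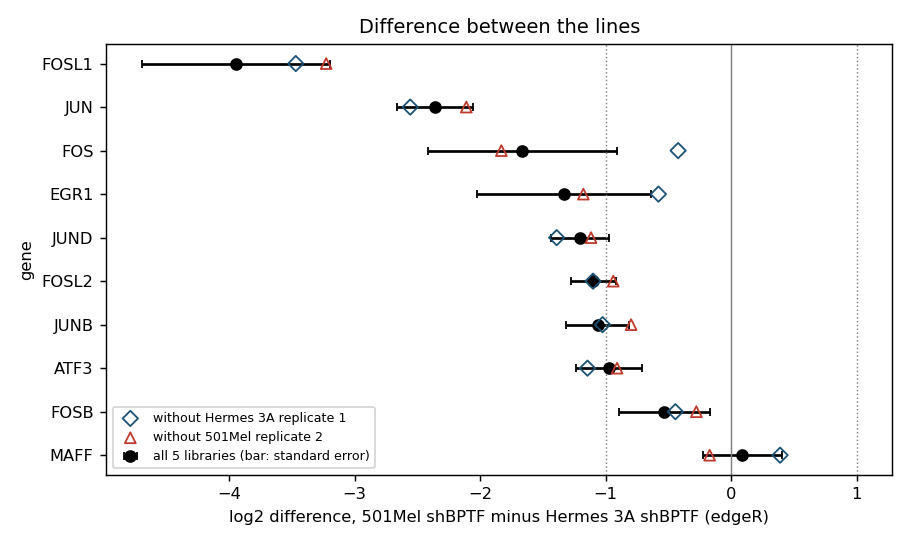
Log2 difference (501Mel shBPTF minus Hermes 3A shBPTF) of each gene with its standard error (filled points, n = 2 and 3 libraries), with the value without Hermes 3A replicate 1 (diamonds) and without 501Mel replicate 2 (triangles). Dotted lines mark 2-fold, and FOS and EGR1 move most towards 0 when Hermes 3A replicate 1 is left out.

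The 10 genes did not move together between the Hermes 3A replicates. Replicate 1 was the highest for FOS, FOSL1, EGR1 and MAFF, 4 of 10 against 33.0% of all genes tested. It was the lowest for JUN, JUND and ATF3, 3 of 10 against 46.5%. The ratio of replicate 1 to the mean of the other 2 was 4.88 for FOS, 2.97 for EGR1 and 2.11 for FOSL1, and it was 0.617 for JUN, 0.635 for JUND and 0.659 for ATF3. FOS alone was at least 2-fold above both other replicates, against 3.52% of all genes. Scaling by edgeR's effective library sizes raised the count to 3, but the share of all genes was not computed under that scaling. Among the fibroblast markers COL1A2 was lower in that replicate (69.5 CPM against 180 and 187 CPM) and LUM was higher (7.35 CPM against 1.13 and 0.964 CPM), and their part in these differences was not tested.

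In 501Mel cells replicate 1 was above replicate 2 for 8 of the 10 genes, against 54.0% of all genes, and FOS and MAFF went the other way. That replicate also had more of the summed fibroblast markers (17.7 against 4.23 CPM, with COL1A1 at 6.53 against 0.740 CPM and LUM at 8.34 against 2.32 CPM) and less of the summed melanocytic markers (12784 against 19763 CPM), and their part in these differences was not tested. The SD of log2(CPM + 1) between replicates was above the median of all tested genes for 9 of 10 genes in each line, with ATF3 in the 501Mel libraries and FOSL2 in Hermes 3A cells below it. Over all genes that median SD was 0.140 in the 501Mel libraries and 0.170 in Hermes 3A cells. FOS, with an SD of 1.29, and EGR1, with 1.26, were both at percentile 99.8 among tested genes in Hermes 3A cells, and FOSL1, with 1.32, was at percentile 99.2 in 501Mel cells.

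**Figure D3:**
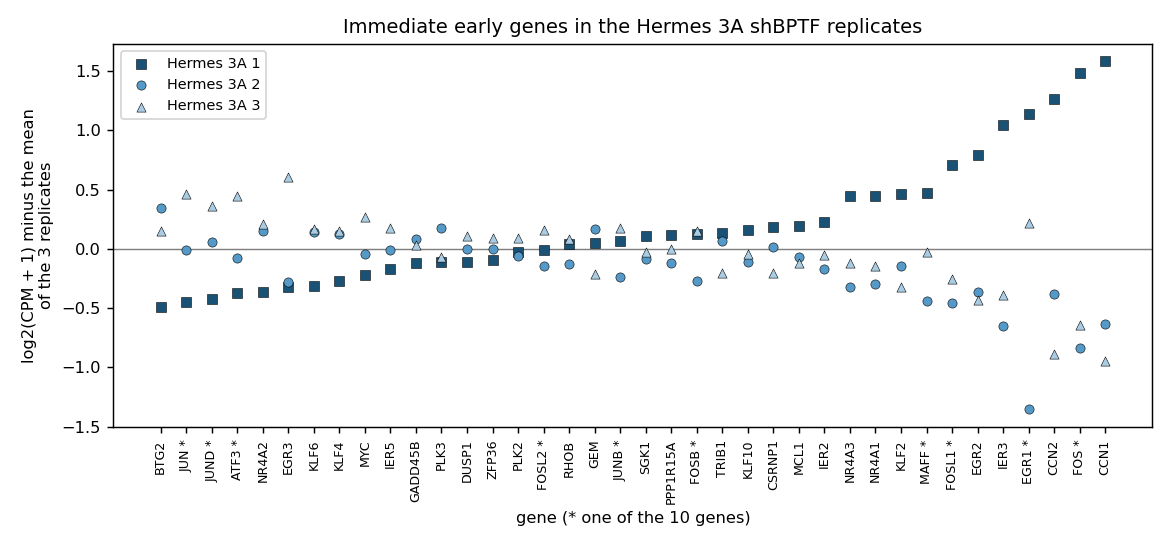
Difference of log2(CPM + 1) in each Hermes 3A shBPTF library from the mean of the 3 libraries, for the 10 genes (starred) and the 28 other tested immediate early genes, ordered by replicate 1. At the right, FOS and EGR1 lie far above 0 in replicate 1 together with CCN1 and CCN2, which were 5.31-fold and 4.17-fold above the mean of the other replicates, and at the left JUN, JUND and ATF3 lie below 0.

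Levels can be set between genes only per length, and CPM per kb of the median annotated transcript was used for this. The libraries were also normalized with duplex-specific nuclease, which lowers abundant transcripts. Levels and family shares therefore describe the libraries and may differ from those in the cells. JUND had the highest mean of the 10 genes in both lines, at 39.7 ± 4.65 CPM per kb in 501Mel cells (SD, n = 2) and 87.9 ± 23.6 CPM per kb in Hermes 3A cells (SD, n = 3), and FOSB the least, at 1.13 ± 0.345 and 1.56 ± 0.295 CPM per kb. In 501Mel cells the order between them was ATF3, FOSL2, FOS, MAFF, JUNB, JUN, FOSL1 and EGR1. Each of these overlapped the next in the order, and only JUND above and FOSB below were clear of their neighbour. In Hermes 3A cells the order after JUND was FOSL1, FOS, JUN, ATF3, FOSL2, JUNB, MAFF and EGR1. Neighbours did not overlap between FOSL2 and JUNB, between JUNB and MAFF and between EGR1 and FOSB. The places near the top rested on Hermes 3A replicate 1, in which FOS (98.6 CPM per kb) and FOSL1 (95.6 CPM per kb) were above JUND (63.5 CPM per kb). Without it the order was JUND, JUN, FOSL1, ATF3, FOSL2, JUNB, FOS, MAFF, EGR1 and FOSB, with FOS at a mean of 20.2 CPM per kb where it was 46.4 CPM per kb over all 3 libraries. By the mean over libraries JUND stayed first and FOSB last with the union of exons or the longest transcript as the length, but the other positions depended on it, as 5 and 9 of the 20 positions in the 2 lines were kept.

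The make-up of each family by the same measure differed between the lines. FOSL1 made up 16.9% and 3.99% of the FOS family in the 501Mel libraries and 41.4%, 44.8% and 43.7% in Hermes 3A cells. FOSL2 took a larger share in 501Mel cells, at 46.4% and 43.6% against 15.1%, 34.0% and 35.3%, whereas FOS took 33.5% and 49.8% against 42.7%, 20.0% and 19.4% and overlapped. The FOSL1 share was alike in the 3 Hermes 3A libraries, whereas replicate 1 had the largest FOS share and the smallest FOSL2 share of its line. By this measure FOSB was at most 3.24% in any library. The FOS and FOSL2 shares depended on dividing by length. Of the reads alone FOSL2 took a mean of 73.1% in 501Mel and 53.2% in Hermes 3A cells, and FOS 16.6% and 14.1%.

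In the JUN family JUND was the largest part in every library, at 64.2% and 70.2% in the 501Mel libraries and 54.4%, 59.8% and 57.2% in Hermes 3A cells. JUN took 16.1% and 13.6% in the 501Mel libraries and 26.5%, 28.2% and 30.3% in Hermes 3A cells. The shares of the lines did not overlap for JUN or JUND, and they overlapped for JUNB. The lead of JUND depended on dividing by length, since of the reads alone JUN took a mean of 51.6% and JUND 34.8% in Hermes 3A cells.

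**Figure D4:**
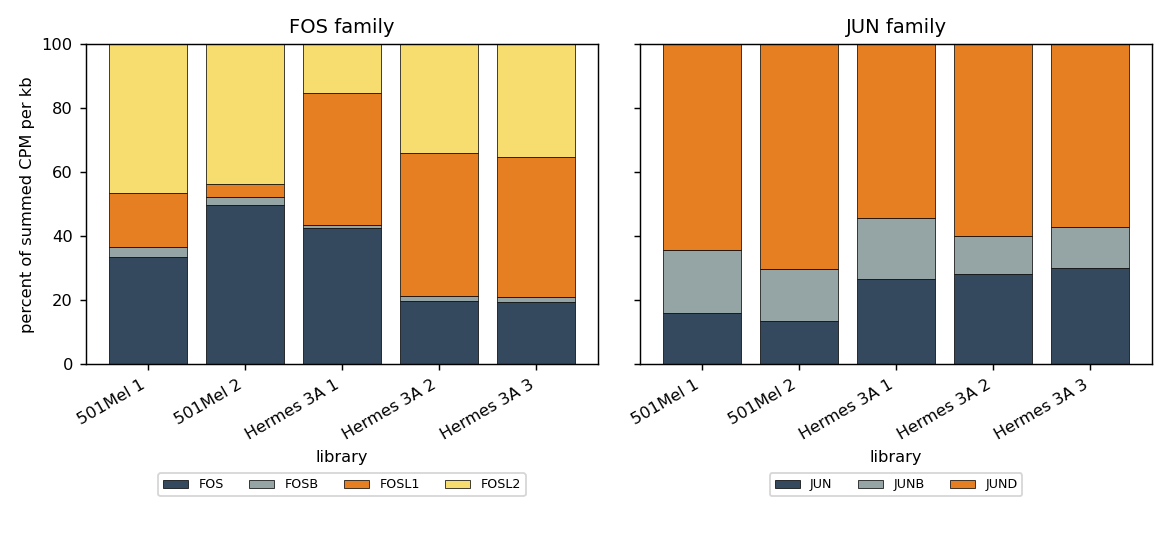
Stacked bars of the share of each gene in the FOS family and in the JUN family, in percent of the family's CPM per kb (median transcript length), for each of the 5 libraries. FOSL1 takes 41.4% to 44.8% of the FOS family in Hermes 3A cells and at most 16.9% in 501Mel cells.

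The genes around AP-1 were taken from lists by role. Counts of called genes in them may be read against all genes tested, of which 17.1% were lower and 17.2% higher in 501Mel cells. Other bZIP factors, which can pair with FOS, JUN, ATF or MAF proteins, had 24 of 25 listed genes tested, of which 7 were lower and 1 higher in 501Mel cells (median log2 difference -0.24). BATF2 (-2.98) and MAF (-2.70) were among those with a lower level in 501Mel cells, and CREM, a CREB relative, was higher (1.41). BATF2 had only 26 and 15 reads in the 501Mel libraries. MAF is a large MAF protein, a relative of MAFF that carries an activation domain.

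Of 28 other immediate early genes tested, 11 were lower and 2 higher in 501Mel cells, with a median log2 difference of -0.73. EGR3 (-4.38), a relative of EGR1, GEM (-3.20), a small GTP-binding protein, and BTG2 (-2.94), an inhibitor of proliferation, led those that were lower. EGR3 had only 44 and 12 reads in the 501Mel libraries. The 2 that were higher were CCN2 (2.65), a secreted matricellular protein, and TRIB1 (1.97), a pseudokinase. Hermes 3A replicate 1 was the highest Hermes 3A library for 14 of the 28, against 33.0% of all genes tested. It was at least 2-fold above both others for 4 (CCN1, CCN2, IER3 and EGR2, named after their values were seen), against 3.52%. Without that replicate 10 were lower and 3 higher, where 36.5% of all genes were called in either direction.

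Of 26 kinases and SRF cofactors that act upstream of AP-1, 2 were lower and 2 higher in 501Mel cells (median log2 difference -0.08). RPS6KA2 (-2.50), an ERK-activated kinase, and PRKCA (-2.22), a protein kinase C that TPA activates, were lower in 501Mel cells. MAPK10 (3.82), the JNK3 gene, was higher but low in level, at 1.67 and 2.75 CPM against at most 0.240 CPM, and MAP3K1 (1.47) was also higher.

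Genes that dampen the response, such as MAP kinase phosphatases and EGR corepressors, included 5 of 13 that were lower in the 501Mel libraries and 0 that were higher (median log2 difference -0.32). DUSP10 (-2.52) and DUSP8 (-1.50), phosphatases of JNK and p38, and NAB2 (-2.07), a corepressor of EGR1, differed most. Without Hermes 3A replicate 1, 4 were lower and 1 higher, where 36.5% of all genes were called in either direction.

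Known AP-1 target genes had 18 of 25 tested, 7 lower and 1 higher in 501Mel cells, with a median log2 difference of -1.18. Hermes 3A replicate 1 was the highest Hermes 3A library for 12 of the 18, against 33.0% of all genes tested. It was at least 2-fold above both others for 6, against 3.52%. Without that replicate 17 were tested, 8 lower and 1 higher, where 36.5% of all genes were called in either direction. CD44, a hyaluronan receptor, was at 0.372 and 0.158 CPM in 501Mel cells (16 and 6 reads) and at 785, 1147 and 1115 CPM in Hermes 3A cells (log2 difference -11.92 ± 0.42 SE). LIF (-3.65), a cytokine at 15 and 7 reads in the 501Mel libraries, and PLAUR (-3.21), the urokinase receptor, were also lower. HBEGF (1.88), an EGF receptor ligand, was higher. It was at 15.6 and 4.25 CPM in the 501Mel libraries against at most 2.63 CPM in Hermes 3A cells.

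Genes of the stress programme in which ATF3 takes part were called in both directions, 4 of 12 lower and 2 higher, with a median log2 difference of 0.06. DDIT4 (-1.74), SESN2 (-1.39) and PPP1R15A (-1.21), which is also among the immediate early genes above, were lower in 501Mel cells, and TRIB3 (1.69) and XBP1 (1.29) were higher. The first 3 restrain TOR signalling or reverse the translational arrest, TRIB3 is a target of ATF4, and XBP1 is a factor of the unfolded protein response. In each of these lists the count may be read against the 34.3% of all genes that were called.

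**Figure D5:**
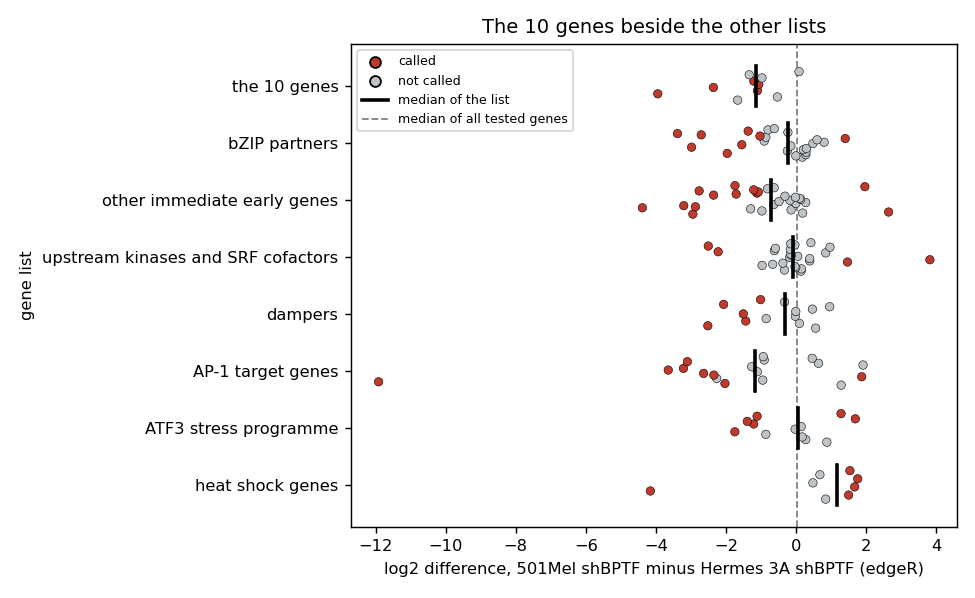
Log2 difference (501Mel shBPTF minus Hermes 3A shBPTF) of each tested gene of the 10 described genes and of the 7 gene lists, 1 point per gene, with called genes in red, the others in grey, the median of each list as a bar and the median of all tested genes as a dashed line. The medians run from -1.18 for AP-1 target genes to 1.18 for heat shock genes, and that of all tested genes is 0.02.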

How the data were processed

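The authors deposited read counts per gene for each library, as whole numbers without normalization, from rRNA-depleted total RNA libraries normalized with duplex-specific nuclease, a step that lowers abundant transcripts. The submitters' processing notes name CASAVA 1.8, TopHat 1.4.1, Bowtie 0.12.7 and hg19. The counting program, annotation release and strand setting are not given in the sources used here. Genes were named, measured and placed by GENCODE 29 (GRCh38), which was not used for counting.

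Libraries were grouped by the labels' line and replicate number. Genes listed in all 5 files were filtered with edgeR's filterByExpr, leaving 17975, scaled by TMM and compared with edgeR 4.0.16 (glmQLFit, glmQLFTest) in R 4.3.3, 501Mel minus Hermes 3A, with Benjamini-Hochberg adjustment. A call needed an adjusted p of 0.05 and a log2 difference of 1. The test was checked on simulated counts. Replicate libraries differed by far more than counting noise. Alternatives were DESeq2 1.42.0, other scalings, no filter, a replicate block, other gene lengths and pseudocounts, and leaving out each library. Longest-transcript length, member levels without each library (per length without Hermes 3A replicate 1), the effective-size scaling of replicate ratios and the median over the 10 genes were added after seeing the data.

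The 10 genes and the lists were chosen with earlier results of these data known. All 10 genes were described, and from each list at most the 3 called genes with the largest absolute log2 difference in each direction were named, except for a gene that is not reported here.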

Additional observations from a re-analysis of the deposited data

How the results depend on the processing

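Between the lines, 6157 genes were called, 5632 with a replicate block and between 4866 and 6483 without 1 library. The replicate numbers were not taken to pair the libraries, since the labels do not say so and only 2 numbers are shared, whose libraries' deviations correlated at 0.103 and 0.115 across genes. Of the 10 genes, 5 were called, and between 5 and 8 without 1 Hermes 3A library. Scaling by total count alone left 4, with JUNB (-0.98) under 2-fold. Without 501Mel replicate 2, which leaves 1 library of that line, FOSL2 (-0.94) and JUNB (-0.80) fell under 2-fold. With no filter on low counts 8 were called, where 6789 of all genes were. The replicate block left 3, where JUND (-0.997) and JUNB (-0.995) fell just under 2-fold. Their median log2 difference of -1.15 was -0.996 with the replicate block and between -1.36 and -1.03 without 1 library. JUN and FOSL1 were called under every alternative tried. With no filter FOS (edgeR adjusted p = 0.0189) and EGR1 (edgeR adjusted p = 0.0458) passed, and ATF3 was called by DESeq2 (adjusted p = 0.00295). The cause was not tested. MAFF, at 0.39 without Hermes 3A replicate 1, turned to -0.17 without 501Mel replicate 2, -0.18 without Hermes 3A replicate 2 and -0.01 without replicate 3. With the union of exons 5 of 20 positions per length were kept and with the longest transcript 9. The mean FOSL1 share in Hermes 3A cells, 43.3%, was 57.1% with the union of exons, 55.0% with the longest transcript and 30.7% of reads without length. With 2 and 3 libraries, differences near 2-fold depend on single libraries. Genes counted at a few reads, and opposite-strand overlaps, limit what depth can show.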

Other observations

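Heat shock genes encode chaperones induced with immediate early genes when cells are stressed. More of them were called higher than lower in 501Mel cells, the opposite direction to the AP-1 genes. Of 8 tested, 4 were higher and 1 lower in 501Mel cells, with a median log2 difference of 1.18, where 17.2% of all genes were called higher and 17.1% lower. HSPD1 (1.76), a mitochondrial chaperonin, HSPA1B (1.67) and HSPH1 (1.54), of the HSP70 family or its relatives, were higher. HSPA1A (-4.16) was lower, but HSPA1A and HSPA1B are near-identical copies between which reads can be split. Both values, and with them both calls, are uncertain. In Hermes 3A cells all 8 were highest in replicate 1, the library with the highest FOS and EGR1, against 33.0% of all genes, by between 1.19-fold and 1.64-fold over the mean of the other replicates.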
